A study of Mus musculus with 12 samples.

Results

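The genes that carry sugars, amino acids, peptides, nucleosides and related small metabolites across membranes were followed in sorted cells of the mouse small intestine. The set was defined by symbol, as every gene of 14 solute carrier families (Slc1, Slc2, Slc3, Slc5, Slc6, Slc7, Slc13, Slc15, Slc16, Slc28, Slc29, Slc36, Slc38 and Slc43), with pseudogenes left out. It held 124 of the 34245 genes in the count table, of which 119 were transporter genes and 5 were neighbours whose names end in os and that lie on the opposite strand to the transporter gene they are named for. RNA-seq was made from stem cells of the crypt (ISC) and from villus cells labelled adult enterocytes (AE), sorted from male C57BL/6 mice at about 8 months (young) and about 27 months (aged), with 3 libraries in each of the 4 groups. All mice carried Lgr5-EGFP-IRES-creERT2, a knock-in that places EGFP and an inducible Cre in the Lgr5 gene. ISC were the viable GFP-high cells of crypt suspensions, so they depend on expression of the Lgr5 reporter and were not stained for surface markers, whereas AE were viable Epcam-high cells of villus suspensions without the endothelial marker CD31 or the leukocyte marker CD45. The Epcam gate takes all epithelial cells of the villus, and goblet cell and enteroendocrine markers were present in AE beside those of enterocytes. The study's methods list 3 mice at each age for RNA-seq, but the labels do not tie a library to a mouse, and p-values measure the spread between these libraries.

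Absorptive enterocytes take up nutrients from the gut lumen through carriers in the apical brush border membrane and release them into the blood through other carriers in the basolateral membrane. Apical carriers are mostly driven by the sodium or proton gradient, while many basolateral carriers are facilitative or exchange one amino acid for another. Several amino acid carriers work only as pairs of a heavy chain (Slc3a1 or Slc3a2) and a light chain of the Slc7 family. Dividing cells rely on a partly different set, which brings in glucose, glutamine, large neutral and cationic amino acids, and exports or imports lactate.

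Library totals lay between 11893817 and 26796461 counts, except for young AE replicate 3 at 110794420 counts. All 20 enterocyte markers were higher in AE than in ISC at both ages, and all 14 stem cell and all 18 proliferation markers were lower, so the labelled cell types carried their markers. Of the markers of other cells, the summed level of 10 goblet markers was 1428 to 2286 CPM (counts relative to the scaled library total) in ISC and 28242 to 57245 CPM in AE, and that of 12 T cell and intraepithelial lymphocyte markers was 3.51 to 27.2 CPM in ISC and 20.8 to 66.3 CPM in AE. Among the AE libraries, young replicate 2 stood apart with 807 CPM of stem cell and 636 CPM of proliferation markers, against at most 352 and 216 CPM in the other 5.

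The transporter genes were a small share of the RNA of ISC and a larger one of the RNA of AE. In ISC they took between 0.354% and 0.410% of counts at the young age and between 0.305% and 0.380% at the aged one, whereas in AE these shares ran from 1.10% to 1.69% and from 1.45% to 1.64%. The lowest AE library was therefore above the highest ISC library. Expressed per kilobase of merged exon and relative to a library total scaled by TMM (RPKM), the summed level of the 124 genes was 602 ± 73.9 RPKM in young ISC and 3970 ± 797 in young AE (mean ± SD, n = 3). No gene of the set reached 100 RPKM in ISC of either age, whereas 13 did in young AE and 19 in aged AE. At the other end, 42 and 40 genes in ISC of young and aged mice, and 26 and 39 in AE, had at most 3 counts in every library. These numbers depend on depth. Some genes passed 3 counts in young AE only in replicate 3, which had 110794420 counts, such as Slc6a16 with 0, 0 and 15. The 26 and 39 are therefore not comparable between the ages. In all 12 libraries, 10 genes had 0 counts.

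The first comparison asks which carriers distinguish the differentiated cell from the stem cell. In young mice 51 members were higher and 19 were lower in AE than in ISC among the 96 with enough counts to be tested (edgeR quasi-likelihood test, FDR under 0.05, adjusted over all genes). Over all 16681 genes tested, 27.7% were called higher and 25.4% lower, and the median log2 fold change was 2.08 for the members against 0.15 for all genes. In aged mice 51 members were higher and 24 lower among 91 tested, against 30% and 34.1% of all 15855 genes, and the medians were 1.76 and −0.13. With the members that sat at the limit of detection in one group set at their lower bound, the medians of the set were 1.27 in young and 1.44 in aged mice. The young and the aged comparison share no library. Of the 51 members called higher in young mice, 49 (96.1%) were also called higher in aged mice, which is 96.1% of the aged list as well, and 19 were called lower at both ages, which is 100% of the young list and 79.2% of the aged list. No member was called in opposite directions. The same shares were not computed over all genes, so this agreement cannot be read as particular to the set.

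The families did not move as blocks. The counts by family leave out the os genes. Every tested transporter gene of Slc3 (2), Slc13 (2) and Slc36 (2) was higher in AE at both ages. In Slc5, 8 of 12 tested were higher in young and 8 of 10 in aged mice, with 1 lower at each age. In Slc6, 9 of 13 were higher and 0 lower in young mice, and 9 of 11 were higher and 1 lower in aged mice. Slc1, the family of glutamate and neutral amino acid carriers, went mainly the other way, with 4 of 6 tested members lower in young and 5 of 6 lower in aged mice. Slc7 was divided, with 4 members higher and 5 lower at each age. None of the 4 tested members of Slc29, the equilibrative nucleoside carriers, was called higher, and 2 were lower at each age.

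**Figure D1:**
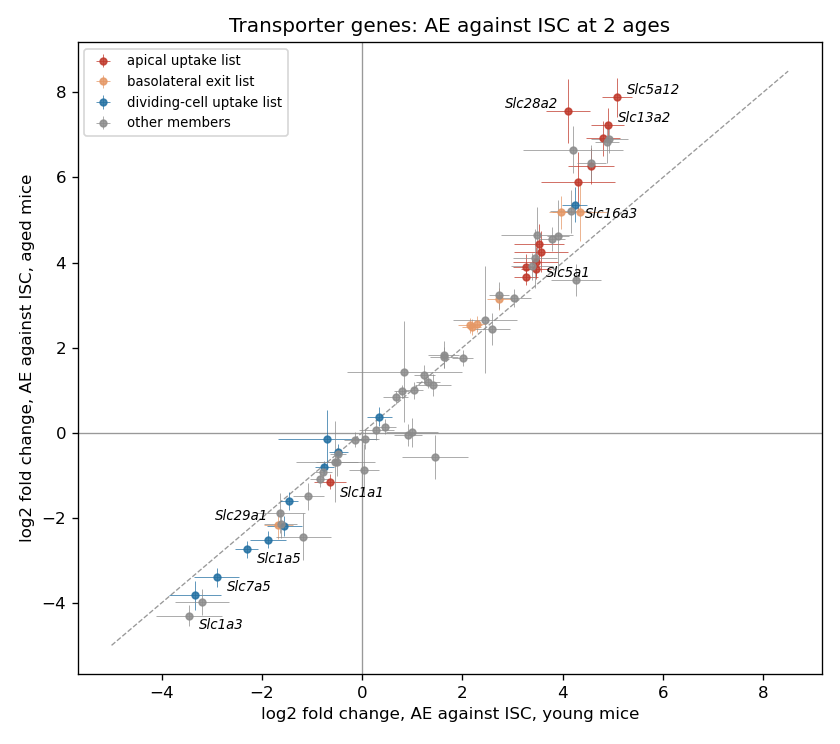
Log2 fold change of AE against ISC in young mice (x axis) and in aged mice (y axis) for the 75 members above the limit of detection in all 4 groups, with 1 standard error as bars in each direction. Colours mark 3 role lists, with Slc3a2 and Slc29a1, which are on more than one list, drawn with the basolateral list, and the dashed line marks equal change. Most points lie in the upper right or lower left.

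Apical uptake carriers of the absorptive cell were called higher in AE for 12 of 13 listed genes at both ages, with median log2 fold changes of 3.57 in young and 4.44 in aged mice. Slc5a1, the sodium-glucose cotransporter that takes up glucose and galactose from the lumen (chromosome 5, 33104219 to 33162870, plus strand, GRCm38), had the highest level per kilobase in each of the 4 groups. Its level was 63.1, 94.4 and 86.0 RPKM in the young ISC libraries, 41.9, 92.8 and 72.6 in aged ISC, 646, 1482 and 552 in young AE, and 1199, 1209.5 and 1135 in aged AE. All AE libraries were above all ISC libraries, while the young and aged libraries overlapped within each cell type. The fold change was 11.0 in young (log2 3.46 ± 0.45 SE, FDR 0.000544) and 16.2 in aged mice (log2 4.02 ± 0.34, FDR 5.87e-06). Without young AE replicate 2, which held the 1482 RPKM, it was log2 2.78 in young mice. Slc5a1 alone made up 21.7% ± 8.53 of the summed RPKM of the set in young AE and 23.3% ± 0.796 in aged AE (SD, n = 3).

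Slc2a5, the fructose carrier of the brush border, stood at 3.15, 7.54 and 9.98 RPKM in young ISC and at 40.6, 106 and 93.1 in young AE. In aged mice its level was 5.43, 10.1 and 3.41 RPKM in ISC and 174, 173 and 84.3 in AE. The increase was 11.6-fold in young and 21.7-fold in aged mice (FDR 0.000806 and 1.83e-05). Slc2a7, a further member of the facilitative hexose family, was among the 6 largest rises at both ages, at 30.6-fold in young and 119.9-fold in aged mice (FDR 0.00011 and 4.3e-07). Its 6 ISC libraries held 0.331 to 1.68 RPKM and its 6 AE libraries 24.0 to 68.3 RPKM. Slc5a4a and Slc5a4b, relatives of Slc5a1 that lie next to each other on chromosome 10, were 23.8-fold and 18.5-fold higher in AE of young mice.

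Among amino acid carriers, Slc6a19, the sodium-coupled carrier of neutral amino acids in the brush border (chromosome 13, 73679745 to 73704865, minus strand), ranked after Slc5a1 in AE at both ages. It stood at 6.90, 7.08 and 18.99 RPKM in young ISC and 2.46, 6.82 and 3.86 in ISC of aged mice, against 217, 281 and 284 in AE of young and 339, 389 and 337 in AE of aged mice. The increase was 23.7-fold in young (log2 4.57 ± 0.46, FDR 0.000238) and 77.1-fold in aged mice (log2 6.27 ± 0.42, FDR 1.45e-06). Without young ISC replicate 3, the highest of the ISC libraries, it was log2 5.22 in young mice. The cystine and cationic amino acid carrier is a pair of Slc3a1 and Slc7a9, and both chains rose by similar amounts. Slc3a1 was 9.67-fold higher in young and 14.8-fold higher in aged mice, and Slc7a9 11.0-fold and 14.4-fold. In AE the levels were 188 ± 21.1 and 127 ± 6.22 RPKM for Slc3a1 and Slc7a9 in young mice. Slc7a15, a further member of the light chain family on chromosome 12, was 29.8-fold and 114-fold higher in AE. The imino acid carrier Slc6a20a rose by 11.89-fold in young and 19.1-fold in aged mice, and in young mice its log2 value went from 3.57 to 4.36 without young ISC replicate 3. In these genes 24.8% (Slc3a1, with Prepl) and 26.7% (Slc6a20a, mostly with Slc6a20b) of the 50-base windows of the transcripts also occur in another gene, so that part of their counts is uncertain.

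Slc1a1, the glutamate carrier, was the exception on the apical list. It held 8.20, 8.07 and 10.5 RPKM in young ISC and 5.48, 8.42 and 3.25 in young AE, where the groups overlapped (log2 −0.65 ± 0.32, FDR 0.119). Without young AE replicate 2, which held the 8.42, it was called lower in young mice as well (log2 −1.14, FDR 0.00514). In aged mice it held 9.51, 9.05 and 10.7 RPKM in ISC and 5.70, 4.14 and 4.04 in AE, without overlap (log2 −1.15 ± 0.17, FDR 0.000251). The Slc1a1 transcripts share 31% of their windows with an antisense gene.

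Slc15a1, the proton-coupled carrier of dipeptides and tripeptides, had 5.15, 4.15 and 7.79 RPKM in young ISC and 1.01, 2.72 and 2.21 in ISC of aged mice, against 119, 202 and 158 in AE of young and 239.7, 282 and 229 in AE of aged mice. It was 28.01-fold higher in AE of young mice (FDR 0.00011) and 121-fold higher in AE of aged mice (FDR 8.76e-07). Slc36a1, a proton-coupled carrier of small neutral amino acids, was 9.61-fold and 12.6-fold higher.

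For nucleosides and carboxylates the same held. Slc28a1, a sodium-coupled nucleoside carrier, was 19.8-fold higher in AE in young (FDR 0.00178) and 59.3-fold higher in aged mice (FDR 5.95e-05). In young mice its log2 value of 4.31 became 5.40 without ISC replicate 3 and 3.65 without AE replicate 3, and in aged mice 5.89 became 7.07 without ISC replicate 2. Its relative Slc28a2 (chromosome 2, 122426477 to 122461137, plus strand) was 17.2-fold and 189-fold higher (FDR 0.000276 and 1.46e-05). The aged value of log2 7.56 rested on 3, 8 and 21 counts in ISC and was 6.91 without aged ISC replicate 1, 8.60 without aged ISC replicate 3 and 6.87 without aged AE replicate 3. Slc13a2, the sodium-coupled carrier of dicarboxylates and citrate, was 29.8-fold and 149.8-fold higher. Slc5a12, a lactate carrier of the sodium-glucose cotransporter family, was 34.1-fold and 236-fold higher. The aged Slc5a12 value went from log2 7.89 to 8.67 without aged ISC replicate 3. Slc13a2, Slc15a1, Slc28a2 and Slc5a12 are among the genes the study picked from these same samples for a difference by age, so their values are not independent evidence of such a difference.

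**Figure D2:**
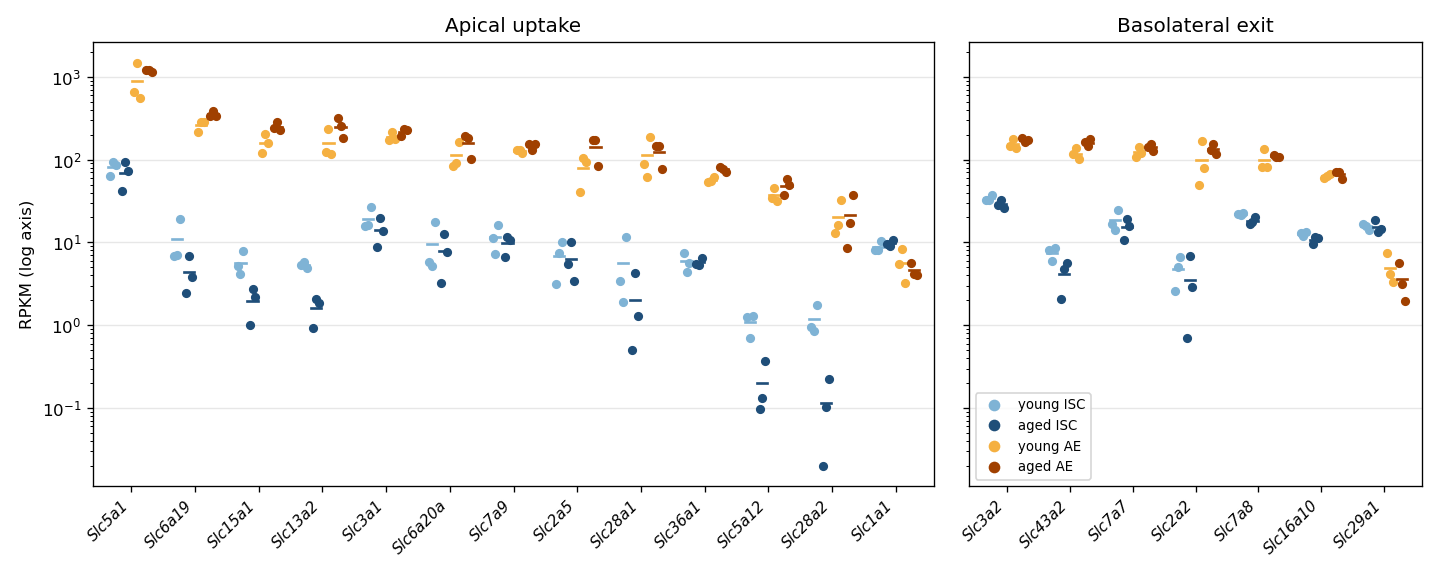
RPKM (log axis) of the 13 apical uptake and 7 basolateral exit genes, with 1 point per library and a bar at the mean of 3 libraries. The AE points of 12 apical and 6 basolateral genes lie above all ISC points of the same age, whereas Slc1a1 and Slc29a1 lie lower in AE, with overlap for Slc1a1 in young mice.

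The bases before the start of transcription are given for 3 of these genes: the highest member of the set and 2 apical carriers or subunits whose window held more than one of the searched motifs. Each line is 250 bases upstream of a RefSeq transcript start, 5′ to 3′ on the gene's strand (GRCm38.p6), with capitals at matches, on either strand, to the HNF4 motif CAAAGTCCA, the CDX motif TTTATTG or the GATA-factor motif AGATAA. The HNF1 motif GTTAATNAT was searched too and had no match.
Slc3a1: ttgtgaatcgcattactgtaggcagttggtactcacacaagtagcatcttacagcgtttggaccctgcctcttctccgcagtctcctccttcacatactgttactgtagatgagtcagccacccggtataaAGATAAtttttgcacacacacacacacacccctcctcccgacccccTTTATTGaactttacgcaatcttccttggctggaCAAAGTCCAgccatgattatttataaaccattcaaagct
Slc28a2: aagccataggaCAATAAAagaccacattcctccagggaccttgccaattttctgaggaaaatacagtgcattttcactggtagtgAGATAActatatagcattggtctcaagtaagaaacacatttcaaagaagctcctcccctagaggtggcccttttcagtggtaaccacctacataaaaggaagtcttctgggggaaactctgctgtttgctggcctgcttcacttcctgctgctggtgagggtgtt
Slc5a1: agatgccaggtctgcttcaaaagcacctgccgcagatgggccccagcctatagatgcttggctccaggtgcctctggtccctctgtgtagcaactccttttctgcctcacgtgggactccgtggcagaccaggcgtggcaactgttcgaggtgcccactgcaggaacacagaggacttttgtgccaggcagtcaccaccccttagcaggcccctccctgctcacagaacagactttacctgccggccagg
The Slc3a1 window is chr17:85028097-85028346, the Slc28a2 window chr2:122426185-122426434 and the Slc5a1 window chr5:33103969-33104218, all on the plus strand. Slc3a1 held 1 match each to the HNF4, CDX and GATA letters, Slc28a2 held 1 each to CDX and GATA, and Slc5a1 held none. The matches do not overlap one another and are a description of the letters only. A window within 300 bases of the deposited gene start was found for 81 members, and 6 of these (7.41%) held any of the motifs and 5 (6.17%) the GATA letters. Of the 17 windows on the apical and basolateral lists, 4 held a motif, which was GATA in all 4 (Slc3a1, Slc28a2, Slc7a9 and Slc7a7). None of the 8 windows of the dividing-cell list held one. Among all 32851 windows of this length, 9.99% held the GATA letters, 4.2% CDX, 0.384% HNF4 and 0.737% HNF1, and 14.4% held any of them.

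Basolateral exit carriers were called higher for 6 of 7 genes at both ages, with median log2 fold changes of 2.30 and 2.55. Slc2a2, the facilitative glucose carrier of the basolateral membrane, stood at 2.59, 5.10 and 6.76 RPKM in young ISC and 0.702, 6.84 and 2.92 in ISC of aged mice, against 49.3, 166 and 78.7 in AE of young and 132, 153 and 117 in AE of aged mice. The increase was 20.3-fold in young and 36.7-fold in aged mice (FDR 0.000499 and 0.000116). Its log2 value went from 4.34 to 3.65 in young mice without AE replicate 2, and from 5.20 to 6.16 in aged mice without ISC replicate 2. Slc43a2, a facilitative carrier of large neutral amino acids, rose by 15.7-fold and 36.2-fold. The heavy chain Slc3a2 had 32.2, 32.2 and 37.8 RPKM in young ISC and 147, 177 and 139.6 in young AE, an increase of 4.54-fold (FDR 0.000153), and rose by 5.62-fold in aged mice. Its light chains Slc7a7 and Slc7a8 rose by 6.67-fold and 4.45-fold in young mice, and Slc16a10, a carrier of aromatic amino acids, by 4.93-fold. Exit carriers were thus already measurable in ISC, where Slc3a2, Slc7a8 and Slc7a7 were among the 10 highest members at both ages.

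Slc29a1, an equilibrative nucleoside carrier, was the exception on this list. Its level was 16.6, 15.9 and 14.3 RPKM in young ISC and 7.37, 4.11 and 3.31 in young AE, and 18.9, 13.2 and 14.5 in aged ISC and 5.65, 3.15 and 1.99 in aged AE. The groups did not overlap, and the fold changes were log2 −1.67 ± 0.29 (FDR 0.00198) and log2 −2.18 ± 0.33 (FDR 0.000239).

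Carriers known from dividing cells were mostly higher in ISC. Of 13 listed genes, 8 were lower in AE in young and 9 in aged mice, 2 were higher at each age, and the medians were −1.46 and −1.60. Slc1a5, a carrier of glutamine and other neutral amino acids (chromosome 7, 16781340 to 16798274, plus strand), was the highest ISC member after Slc5a1. It held 53.3, 40.6 and 37.5 RPKM in young ISC and 44.5, 35.1 and 51.0 in ISC of aged mice, against 10.7, 9.06 and 6.83 in AE of young and 7.25, 7.60 and 5.59 in AE of aged mice. All ISC libraries were above all AE libraries (log2 −2.31 ± 0.23, FDR 0.000215 in young and log2 −2.74 ± 0.20, FDR 2.66e-06 in aged mice).

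Slc7a5, the light chain for large neutral amino acids, fell from 8.40 to 1.16 RPKM in young mice (log2 −2.91 ± 0.44, FDR 0.00106) and from 9.35 to 0.929 RPKM in aged mice (log2 −3.40 ± 0.22, FDR 1.11e-06). The cationic amino acid carrier Slc7a1 held 12.9, 12.9 and 12.5 RPKM in young ISC and 3.03, 5.61 and 1.87 in young AE (FDR 0.00298). Slc29a2, the second equilibrative nucleoside carrier, was lower in AE by log2 −3.34 ± 0.52 in young and −3.83 ± 0.34 in aged mice. Slc7a6 and the glutamine carrier Slc38a1 were lower at both ages too. Without young AE replicate 2, the AE library with the most stem cell and proliferation markers, the values in young mice were log2 −3.61 for Slc7a5, −2.50 for Slc7a1 and −4.00 for Slc29a2. Slc16a1, a proton-coupled monocarboxylate carrier, changed less, from 38.3 ± 3.47 to 22.8 ± 4.51 RPKM in young mice (log2 −0.75 ± 0.19, FDR 0.0104). The 2 listed genes that were higher in AE were the heavy chain Slc3a2 and the lactate carrier Slc16a3, at 18.9-fold in young and 41.1-fold in aged mice. Slc2a1, a facilitative glucose carrier, stood at 5.67, 4.83 and 7.05 RPKM in young ISC and at 9.85, 6.37 and 6.10 in young AE, and did not pass the test (log2 0.34 ± 0.25, FDR 0.265), nor in aged mice (log2 0.37 ± 0.22, FDR 0.166) except when aged AE replicate 3 was left out (log2 0.58, FDR 0.0279). Slc38a2 was near the threshold. In young mice it did not pass (log2 −0.47 ± 0.19, FDR 0.0707), but did without young AE replicate 2 (FDR 0.042) and with upper-quartile scaling. In aged mice it passed (log2 −0.45 ± 0.18, FDR 0.0494), with overlapping libraries, and lost the call under 4 other settings and in 4 of 6 fits without 1 library. Slc7a11 reached at most 0.0504 RPKM in any library and was not called at either age.

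**Figure D3:**
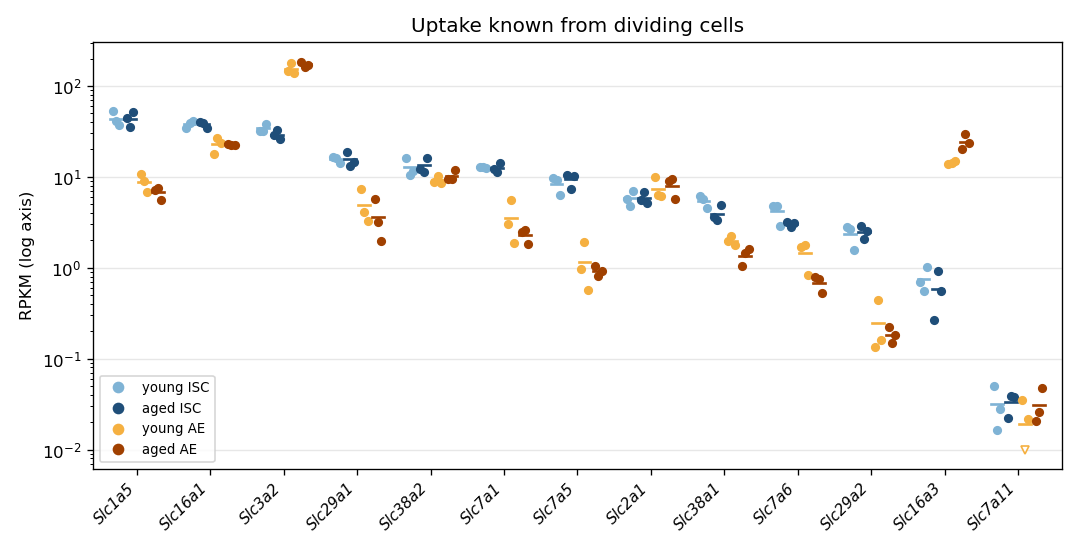
RPKM (log axis) of the 13 genes on the list of uptake known from dividing cells, with 1 point per library, a bar at the mean of 3 libraries and an open triangle for a value of 0. Slc3a2 and Slc16a3 lie higher in AE, Slc2a1 and Slc7a11 overlap between the cell types, and Slc1a5, Slc16a1, Slc29a1, Slc7a1, Slc7a5, Slc7a6, Slc29a2 and Slc38a1 lie higher in ISC.

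Proportions within a library were computed for 3 groups of related carriers. The first was a chosen set of 4 light chains that pair with Slc3a2, namely Slc7a5, Slc7a6, Slc7a7 and Slc7a8. Of their summed RPKM, Slc7a5 made up 15.9% ± 4.21 in young ISC and 20.7% ± 5.18 in aged ISC. In AE it made up 0.493% ± 0.207 in young and 0.370% ± 0.0527 in aged mice. Slc7a7 made up 34.4% ± 7.96 and 33.0% ± 7.55 in young and aged ISC and 55.5% ± 4.22 and 55.9% ± 2.57 in young and aged AE, whereas Slc7a8 stayed between 39.6% and 43.5% in the 4 group means. Among the nucleoside carriers, the 4 equilibrative ones of Slc29 made up 73.1% ± 15.9 in ISC of young and 84.1% ± 10.2 in ISC of aged mice, and 6.71% ± 3.66 and 4.04% ± 0.799 in young and aged AE. The remainder was the sodium-coupled Slc28 family, of which Slc28a1 alone made up 76.5% ± 6.28 of all nucleoside carriers in young AE and 79.4% ± 13.5 in aged AE. Within Slc16, Slc16a1 fell from 46.5% ± 4.24 of the family in young ISC to 11.3% ± 1.73 in young AE, where Slc16a10 and Slc16a5 made up 31.6% each. These are proportions of RNA per kilobase and carry no test.

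**Figure D4:**
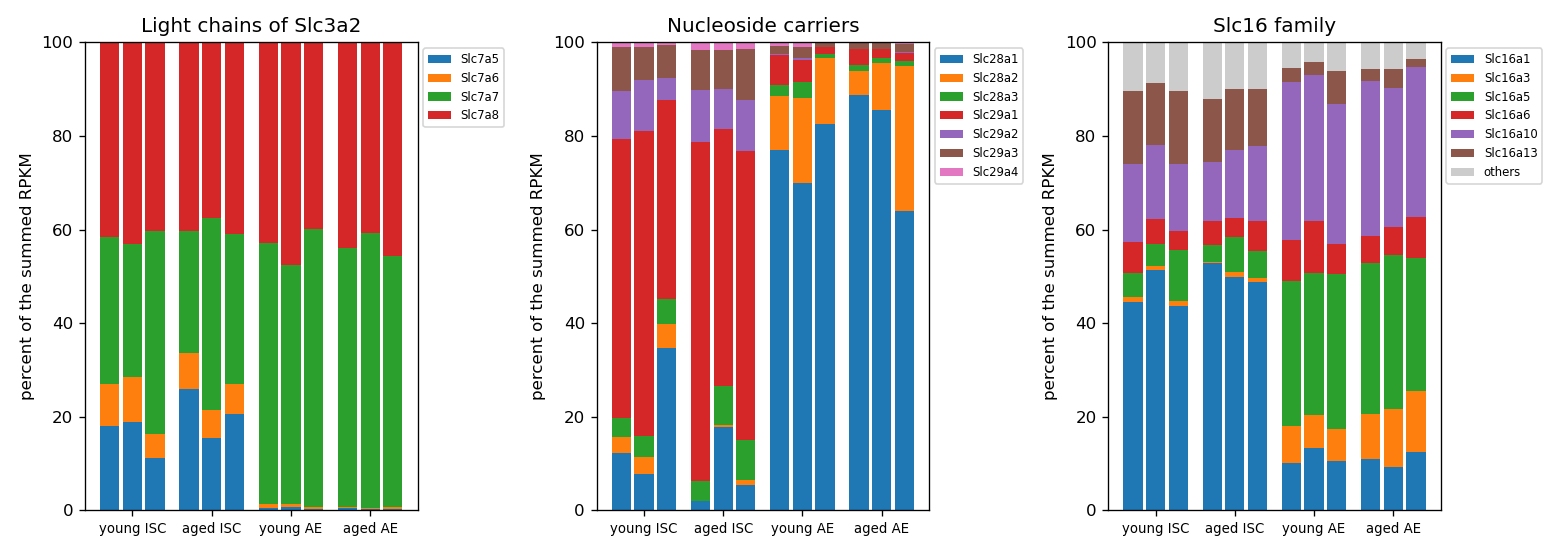
Stacked bars give the percent of the summed RPKM of 3 carrier sets in each of the 12 libraries, 3 bars per group. Slc7a5 and Slc7a6 are seen in ISC and nearly absent in AE, Slc29a1 is the largest nucleoside carrier in 6 of 6 ISC libraries and Slc28a1 in 6 of 6 AE libraries, and Slc16a1 gives way to Slc16a5 and Slc16a10 in AE.

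Other members fell outside these lists. Slc1a2 and Slc1a3 are glutamate carriers best known from astrocytes. Slc1a3 held 6.96 to 9.65 RPKM in the 6 ISC libraries and 0.200 to 1.56 in the 6 AE libraries, and was lower by log2 −3.46 ± 0.65 in young and −4.30 ± 0.25 in aged mice (FDR 0.0028 and 7.63e-07). The highest AE value was that of young replicate 2, without which the change in young mice was log2 −4.69. Slc1a2 held 0.631 to 1.24 RPKM in ISC and had 0 counts in all 3 aged AE libraries, at least 29.3-fold lower than in aged ISC against a floor of 3 counts per library. In young mice its log2 value of −5.96 became −7.36 without AE replicate 2 and −4.96 without AE replicate 3. Slc16a12 was lower by log2 −3.78 ± 0.59 in young mice and at least 23.9-fold lower in aged AE, and Slc38a4 was lower by log2 −5.42 ± 0.73 in young mice and at least 5.60-fold lower in aged AE. The Slc16a12 value in young mice was log2 −4.69 without AE replicate 2. For Slc38a4 the young AE libraries held 0, 0 and 8 counts, the 8 in the deepest library. Slc16a7 was at least 5.43-fold lower in aged AE. The cationic amino acid carrier Slc7a2 was lower by log2 −3.20 ± 0.54 and −3.98 ± 0.29, and by log2 −3.81 in young mice without AE replicate 2. At the other end, genes absent or nearly absent from ISC of the age compared appeared at low level in AE. Slc6a3 was at least 39.8-fold higher in aged AE. In young mice Slc6a3 held 0, 0 and 1.01 CPM in ISC and 2.29, 2.23 and 14.1 CPM in AE, with replicate 3 the highest in both. In young mice Slc38a8 was at least 9.54-fold, Slc6a18 at least 6.28-fold, Slc6a19os at least 4.65-fold and Slc38a3 at least 2.64-fold higher.

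The members that led their family at 10 RPKM or more were the same 8 families in ISC of both ages, led by Slc1a5, Slc16a1, Slc29a1, Slc3a2, Slc38a10, Slc5a1, Slc6a6 and Slc7a8. In AE 12 families had such a member, and the leader changed to Slc16a5 or Slc16a10 in Slc16, to Slc3a1 in Slc3, to Slc6a19 in Slc6 and to Slc7a9 in Slc7. The taurine carrier Slc6a6 was 2.04-fold higher in AE of young mice (FDR 0.00295), and Slc38a10 1.73-fold (FDR 0.00323). Slc6a8, the creatine carrier, reached 201 ± 31.2 RPKM in young AE and 253 ± 58.1 in aged AE.

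Genes of nutrient digestion and handling that are no transporters of the set were compared too. All 10 listed enzymes of peptide digestion were higher at both ages, with medians of 3.74 and 4.76, and so were all 8 genes of nucleoside handling, with medians of 3.59 and 4.09. The largest changes in young mice were Tmprss15 (log2 5.21 ± 0.52) and Ace (log2 4.61 ± 0.38) among the peptide genes, and Nt5e (log2 6.00 ± 0.60) and Xdh (log2 4.01 ± 0.36) among the nucleoside genes. Of 11 genes of sugar digestion and handling, 8 were higher and none lower at each age, led by lactase (Lct, log2 4.66 ± 0.36) and trehalase (Treh, log2 4.44 ± 0.59). Of 9 tested partner genes, 7 were higher and none lower, led by the scaffold Pdzk1 (log2 4.48 ± 0.48). The amino acid response list was divided, with 3 of 8 genes higher and 3 lower at each age. The largest changes in each direction in young mice were those of Trib3 (log2 4.31 ± 0.43) and Ddit4 (log2 −2.47 ± 0.37).

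The next comparison was of aged with young ISC. No member was called by edgeR (0 of 85 tested), nor was any of the 15552 genes (0%). At an unadjusted p under 0.05, 4 members were higher and 13 lower in aged ISC, against 2.04% and 2.43% of all genes. The aged libraries lay wholly above the young ones for 3 members and wholly below for 15, against 4.42% and 4.44% of all genes. The median log2 fold change was −0.21 for the set, 0.01 for all genes, −0.47 for the apical list and −0.000373 for the dividing-cell list. DESeq2, which called 0.0707% of all genes higher and 0.302% lower, called 4 members lower and none higher.

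Those 4 members were Slc13a2, Slc28a2, Slc5a12 and Slc15a1, which also had the lowest unadjusted p in edgeR. Slc13a2 held 5.31, 5.74 and 4.96 RPKM in young ISC, against 0.919, 2.06 and 1.84 RPKM in the aged ones (log2 −1.73 ± 0.31, edgeR FDR 0.567, DESeq2 FDR 0.000191). Slc28a2 held 0.954, 0.864 and 1.73 RPKM in young and 0.0200, 0.103 and 0.222 in aged ISC (log2 −3.41 ± 0.68, edgeR FDR 0.594, DESeq2 FDR 0.000211). Behind these levels were 63, 64 and 130 counts of Slc28a2 in young and 3, 8 and 21 in aged ISC. For Slc5a12 the levels were 1.27, 0.699 and 1.30 RPKM in young and 0.0967, 0.133 and 0.372 in aged ISC (log2 −2.44 ± 0.53, edgeR FDR 0.638, DESeq2 FDR 0.00365). Without aged ISC replicate 3 the log2 values were −4.43 for Slc28a2 and −3.25 for Slc5a12, and without aged ISC replicate 1 they were −2.83 and −2.07. The Slc15a1 levels given above differed by log2 −1.53 ± 0.37 (edgeR FDR 0.796, DESeq2 FDR 0.0163). All 4 genes were therefore lower in each aged library than in each young one, and none passed the main test. Slc5a4a was next, at 2.57, 2.62 and 4.18 RPKM in young and 0.792, 1.89 and 1.30 in aged ISC (log2 −1.24 ± 0.37, edgeR FDR 1). The Slc28a2 transcripts share 35.4% of their windows with the neighbouring Gm14085, which had 0 counts in all 6 ISC libraries and 0 to 10 counts in AE, and Slc13a2 shares 18.7% with its antisense gene Slc13a2os.

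The marker lists of other cells differed between young and aged ISC to unlike degrees and not all in one direction. The summed level of the 20 enterocyte markers was 5117 to 12253 CPM in young ISC and 2449.8 to 7079 CPM in aged ISC, 8 of the 20 were lower and none higher at an unadjusted p under 0.05, and none was at 0 in either group. The summed level of the 12 T cell and intraepithelial lymphocyte markers was 11.1 to 27.2 CPM in young and 3.51 to 5.24 CPM in aged ISC, 7 of the 12 were lower at an unadjusted p under 0.05, and Nkg7 was at 0 in aged ISC. The 10 goblet markers summed to 2030 to 2286 CPM in young and 1428 to 1954 CPM in aged ISC. Of these, 3 were lower and none higher at an unadjusted p under 0.05, while 5 log2 fold changes were positive and 5 negative (median −0.01). Among 12 enteroendocrine markers, 10 were positive and 2 negative (median 0.31). All 10 tuft markers were negative (median −0.17), and of 9 Paneth markers 3 were positive and 6 negative (median −0.13). No marker on these last lists had an unadjusted p under 0.05. The 14 stem cell markers, summing to 6530 to 8824 CPM in young and 6510 to 8945 CPM in aged ISC, had none at an unadjusted p under 0.05 in either direction. The part of the marker lists in the transporter differences was not tested, and in these bulk samples fewer cells of a type and less RNA per cell cannot be told apart.

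The 13 members on the dividing-cell list lay between log2 −0.46 and 0.16 by age in ISC, with 8 negative and 5 positive. Slc1a5 averaged 43.8 ± 8.38 RPKM in young and 43.5 ± 8.01 in aged ISC, and Slc16a1 38.3 ± 3.47 and 38.04 ± 3.16. Slc7a1 averaged 12.8 ± 0.222 and 12.5 ± 1.498 RPKM, whereas Slc7a6 averaged 4.17 ± 1.10 in young and 3.02 ± 0.210 in aged ISC. Slc38a1 was the one with an unadjusted p under 0.05 (log2 −0.46 ± 0.19, FDR 1).

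**Figure D5:**
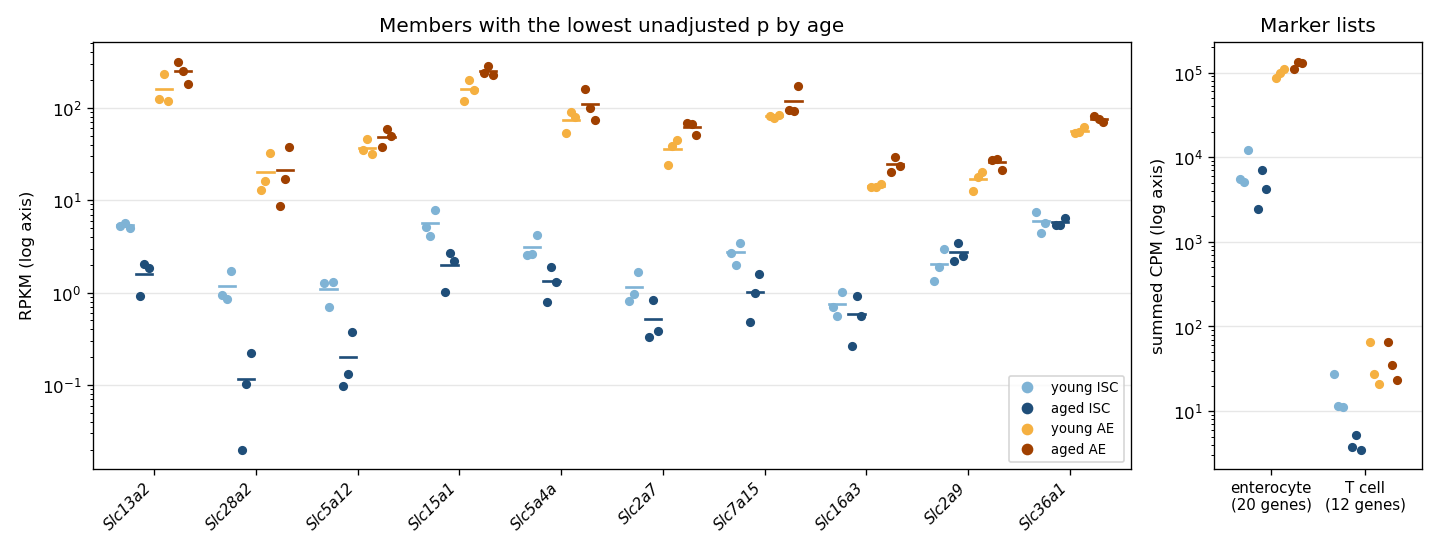
Left, RPKM (log axis) by library of the members with the lowest unadjusted p in the comparisons by age, with a bar at the mean of 3 libraries. Right, summed CPM (log axis) of 20 enterocyte and 12 T cell and intraepithelial lymphocyte markers in the same libraries. In ISC the aged points of Slc13a2, Slc28a2, Slc5a12, Slc15a1, Slc5a4a and Slc7a15 lie below the young ones, and the aged points of the T cell markers do as well.

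In AE no member was called between the ages either (0 of 96 tested by edgeR, 0% of 16265 genes), and DESeq2, which called 0.0738% of genes higher and 0.0369% lower, called no member. At an unadjusted p under 0.05, 8 members were higher and 4 lower in aged AE, against 1.62% and 3.35% of all genes, and the aged libraries lay wholly above the young ones for 12 members and wholly below for 4, against 4.01% and 6.94% of all genes. The median log2 fold change was 0.08 for the set and −0.04 for all genes. The lowest p belonged to Slc16a3, a lactate carrier, at 13.8, 14.0 and 15.1 RPKM in young and 20.1, 29.5 and 23.7 in aged AE (log2 0.79 ± 0.18, FDR 0.833). Slc2a7 stood at 24.0, 38.4 and 44.5 RPKM in young and 68.3, 66.9 and 51.2 in aged AE (log2 0.81 ± 0.24, FDR 0.833). Slc15a1, Slc2a9 and Slc36a1 followed, at log2 0.66 ± 0.23, 0.62 ± 0.21 and 0.45 ± 0.16, all with an FDR of 0.833. The libraries of these 5 genes did not overlap between the ages. The summed enterocyte markers were 87335 to 111040 CPM in young and 111380 to 134190 CPM in aged AE, all 20 markers had a positive log2 fold change, and none had an unadjusted p under 0.05. All 18 proliferation markers had a negative one (median −1.38, 4 with an unadjusted p under 0.05), as did 12 of 14 stem cell markers (median −0.96, 3 with such a p) and 9 of 12 enteroendocrine markers (median −0.76, 4 with such a p). The proliferation markers summed to 216, 636 and 119 CPM in young AE replicates 1, 2 and 3 and to 147 to 156 CPM in aged AE. The part of these markers in the transporter values was not tested.

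The age effect in AE was then set against that in ISC in one fit of the 12 libraries. No member was called by edgeR (0 of 98 tested), while 0.00575% of 17377 genes were called higher and 0% lower. At an unadjusted p under 0.05, 12 members had a more positive age effect in AE and 3 a more negative one, against 1.85% and 2.51% of all genes. The lowest p values belonged to Slc5a12 (log2 difference 2.86 ± 0.53), Slc13a2 (2.40 ± 0.46), Slc15a1 (2.18 ± 0.48), Slc2a7 (2.03 ± 0.49) and Slc7a15 (2.00 ± 0.50), with FDR values of 0.456, 0.478, 0.724, 0.729 and 0.764. DESeq2, which called 0.23% of genes higher and 0.0173% lower, called these 5 members. The library code, which was taken to pair the ISC and AE libraries, was also used as a block. In that fit 0.121% of genes were called higher and 0% lower. Among them were 2 members, Slc28a2 (3.56 ± 0.31, FDR 0.00464) and Slc7a15 (2.04 ± 0.30, FDR 0.0311). Without aged ISC replicate 3, Slc5a12 was called (FDR 0.0303). For Slc7a15 the levels were 2.71, 2.01 and 3.45 RPKM in young ISC and 0.479, 0.993 and 1.57 in ISC of aged mice, against 82.4, 78.0 and 83.1 in AE of young and 93.9, 93.0 and 172 in AE of aged mice. The lower ISC values and the higher AE values of aged mice both enter this difference.

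Some members differed widely between libraries of a group, in the ISC and AE libraries of the same code. The following genes were chosen after their values were seen. Slc5a4b held 5.27, 2.62 and 26.97 RPKM in young ISC and 117, 90.1 and 437 in young AE, with replicate 3 the highest in both cell types. Slc28a1 did the same, at 3.43, 1.91 and 11.6 RPKM in young ISC and 87.2, 62.2 and 187 in young AE. Slc16a9 held 0.805 and 0.949 RPKM in aged ISC replicates 1 and 2 and 3.81 and 7.67 in aged AE replicates 1 and 2, but 0 counts in replicate 3 of both, where 3 counts would be 0.0344 and 0.0846 RPKM. Its call in young mice (5.46-fold higher in AE, FDR 0.0123) was not made in aged mice (FDR 0.0888). Over the members with at least 1000 counts at an age, the same code was highest in ISC and AE for 25 of 64 (39.1%) in young and 32 of 58 (55.2%) in aged mice, against 46.6% and 45.7% of all such genes.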

How the data were processed

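The authors trimmed 50-base single-end reads of poly(A) libraries (14 PCR cycles, strand-specific kit) with Trim Galore 0.4.4, aligned them to GRCm38 with HISAT2 2.1.0 and deposited raw counts per gene from SeqMonk, without normalization. The annotation release and whether counting used strand are not given in the sources used here. Only the deposited counts were used here. A second deposited table of the study's own comparisons by age, with fold changes and adjusted p-values, was not used. Library codes in the column names gave the group. For 8 of the 12 samples, the title pairs a code with a description of another group, and the code was followed. Replicates 1 to 3 are the codes of each age in order.

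Members and lists were chosen with earlier results of these data known. Genes whose counts summed to 10 or more in the libraries fitted were tested with edgeR 4.0.16 (TMM, quasi-likelihood, Benjamini-Hochberg over all genes, R 4.3.3). The standard errors (SE) given with edgeR log2 values are approximate. Each is the absolute log2 fold change divided by the square root of the quasi-likelihood F statistic. Age was compared within each cell type, cell types within each age, and the 2 age effects in a fit of 12 libraries. RPKM used merged exon lengths of the GENCODE annotation given for GRCm38, which matched all 124 members. At 3 counts or fewer in all libraries of a group, a fold was computed against a floor of 3 counts per library, which covers counting error only. The deepest library has the least counting error. Named genes were those of the 3 role lists, the 6 largest rises and falls between cell types among called members whose libraries did not overlap, the members with the 5 lowest p by age, and the highest member of each family at 10 RPKM or more. Some genes under this rule are not reported here. Deviations from the group means were compared between ISC and AE libraries over 10960 genes. They correlated at 0.231 to 0.488 in 6 of 6 pairs of the same code. In 12 pairs of different codes the correlations ran from −0.484 to 0.204. Deviations within a group sum to 0, so positive correlations for the same code push those of different codes toward negative values. The contrast between these ranges is therefore partly built in. The codes were taken to pair the libraries, though the labels do not tie a library to a mouse. The young and aged codes differ, and no block was possible by age. Alternatives were DESeq2 1.42.0, RLE and upper-quartile scaling, other filters, 1 fit of 12 libraries, the block, and leaving out each library. The edgeR step was tested on simulated data.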

Additional observations from a re-analysis of the deposited data

Results flagged for a closer look

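A pair of members were singled out because their age effects differed between the cell types in the fit with the library code as a block. For Slc28a2, the age effect in AE minus that in ISC was 3.56 on the log2 scale (SE 0.31, FDR 0.00464, edgeR), from a log2 fold change of −3.41 in ISC and 0.06 in AE. The Slc28a2 value rested on 3, 8 and 21 counts in aged ISC. Slc28a2 is also among the genes the study picked by age from these same samples, so its value is not independent evidence. For Slc7a15 it was 2.04 (SE 0.30, FDR 0.0311), from −1.43 in ISC and 0.58 in AE. Without the block both kept their direction and missed the threshold, with FDR values of 0.782 and 0.764.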

How the results depend on the processing

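Between AE and ISC, the number of members called moved little under the alternatives: 47 to 54 higher and 16 to 22 lower in young mice, and 44 to 52 higher and 21 to 26 lower in aged mice. By age in AE, no member was called under any alternative run. In ISC, DESeq2 called 4 members lower in aged mice where edgeR called none, and leaving out a library gave 0 in each fit. For the age effect in AE against that in ISC, DESeq2 called 5 members and the replicate block 2, and fits without 1 library called 0 to 1, the 1 being Slc5a12 without aged ISC replicate 3. The cause was not tested. The block changed no other call of a named gene. Slc7a11, at most 0.0504 RPKM, had log2 −0.16 between AE and ISC of aged mice and from −0.55 to 0.073 in the fits without 1 library, turning positive without aged AE replicate 1, and was called in none of them. Upper-quartile scaling moved the median of all genes by −0.12 on the log2 scale between AE and ISC of young mice, and the other scalings moved it by less than 0.1 in each comparison. No block was possible by age, since young and aged libraries share no code. With 3 libraries a group, an exact permutation test of a single gene cannot go below 0.1, and members at 3 counts or fewer could not be told from 0 at this depth.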
